A study of Mus musculus with 18 samples.

Results

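CD4+ T cells without miR-155 were compared between tumor-bearing mice that had received checkpoint blockade and mice that had not. The comparison takes in 6 of the 18 RNA sequencing libraries of the series, chosen by their labels: 3 of miR-155-deficient CD4 cells with blockade (treated) and 3 of miR-155-deficient CD4 cells without it (untreated). All mice were of the B6 strain and carried B16f10-OVA tumors, a melanoma line that expresses ovalbumin, which were digested after 12 days of growth and from which the T cells were flow sorted. The treated and the untreated mice alike carried a floxed miR-155 gene and Cre recombinase under the CD4 promoter. That promoter is active during the development of CD4 and CD8 T cells, so both cell types lose the gene and other cells of the tumor keep it. The treated mice had been injected with antibodies to PD-1/PD-L1 and to CTLA-4 on days 3, 6 and 9. The labels give a volume of 250 ul and concentrations of 1, 1 and 0.4 mg/ml, without saying which figure belongs to which antibody or day. Each library pools cells of 2 to 3 tumors from separate mice. The labels do not say whether libraries of different cell types or groups share animals, so p-values measure only the spread between these pools. Treated and untreated deficient CD8 cells and untreated floxed CD4 cells without Cre, 3 libraries each, are used below for context. None of the 18 libraries is of floxed cells with blockade, so what follows describes antibody treatment on the deficient background alone.

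PD-1, encoded by Pdcd1, and CTLA-4 are receptors on T cells that dampen activation. PD-1 binds PD-L1 on tumor and myeloid cells, and CTLA-4 competes with CD28 for its ligands and is abundant on regulatory T cells. Antibodies to them release effector T cells and are a standard treatment of melanoma. miR-155 is a microRNA induced in activated lymphocytes that supports effector responses, and it acts through a seed near its 5′ end that pairs with target transcripts. The mature sequence, shown because it is what the cells of both groups lack, is that of RefSeq (GRCm38.p6, chr16:84714143-84714165, plus strand), with seed bases 2 to 8 in capitals.
mmu-miR-155-5p: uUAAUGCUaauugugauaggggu

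The host transcript of miR-155 was nearly absent from both groups. Mir155hg (chromosome 16, 84703167 to 84715245, GRCm38) was at 0.0873, 0 and 0.191 CPM (counts per M counts, on a TMM scale) in treated cells and at 0.649, 0 and 0.566 CPM in untreated cells, which is 3 and 7 reads in all. In floxed CD4 cells it was at 4.88, 8.24 and 6.72 CPM, above every deficient library. The model of the precursor itself, Mir155, had 0 counts in all 18 libraries, so deletion was read from the host transcript alone. Cd4 was at 974, 1091 and 796 CPM in treated cells and at 638, 640 and 530 CPM in untreated cells, against 1.24 to 2.15 CPM in treated CD8 cells. Cd8a was low but uneven, at 1.83, 17.5 and 4.97 CPM in treated cells and at 0.26, 0.136 and 0.283 CPM in untreated cells, and treated replicate 2 was the highest. Cd8b1 overlapped between the groups, at 11.1, 28.9 and 12.2 CPM in treated cells and at 17.4, 8.16 and 6.79 CPM in untreated cells. Cd8a in treated CD8 cells was at 976 to 1168 CPM.

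Total counts were 11.4, 3.36 and 10.25 M in the treated libraries and 7.38, 7.16 and 3.87 M in the untreated libraries, within a range of 3.2 to 11.65 M over the series. A floor of 3 counts, which covers counting error only, equals 0.262 to 0.904 CPM in treated and 0.39 to 0.848 CPM in untreated libraries. Treated replicate 2, the shallowest of the 6, stood apart from the others on the first principal component, which held 48% of the variance. Untreated replicate 3 was the next shallowest, and 17.7% of its counts fell on rRNA-like and small RNA models, against 6.04% to 8.87% in the other 5. Each pair of replicates differed by more than sampling noise. Transcripts of tumor and myeloid cells were present in all 6 libraries, and their levels stand below beside the results.

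Few genes passed the test for a difference between treated and untreated deficient CD4 cells. Of 14080 genes tested, 12 were higher and 8 were lower in treated cells at an adjusted p under 0.05 (edgeR's quasi-likelihood test over all 18 libraries, Benjamini-Hochberg), 0.0852% and 0.0568% of the tested genes and 0.142% in all. The higher genes were Cd5l, Fcna, Hdc, Folr2, Igfbp7, Kcnk5, Cxcr6, Gem, Themis, Fkbp5, Adam8 and Pdcd1. The lower genes were Ly6d, Flt3, Kmo, Tdrp, Il10, Slc30a4 and the small RNAs Snord17 and Gm25395. In each of the 20 genes all 3 treated libraries lay on one side of all 3 untreated libraries. Such separation was seen in 20% of all tested genes, 10.1% with the treated libraries above and 9.9% with them below. At an unadjusted p under 0.05 there were 774 higher and 816 lower genes, and the median log2 fold change over all tested genes was -0.01. The treated CD8 cells, measured in the same fit, had 1162 genes higher and 779 lower than untreated CD8 cells (8.25% and 5.53%, 13.8% in all).

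The short list depended on single libraries. Without treated replicate 1 or without untreated replicate 1 no gene was called, with 1364 and 1255 genes at an unadjusted p under 0.05, against 1590 with all libraries. Without treated replicate 2 the calls were Fcna and Folr2 alone, and without treated replicate 3 there were 106 calls, which included 19 of the 20 genes. Without untreated replicate 2 there were 12 calls, 10 of them among the 20, and without untreated replicate 3 there were 9, of which 5 were among the 20. Over these 6 fits each of the 20 genes was called between 0 times (Flt3) and 4 times (Folr2 and Fcna). In the 11 other settings Igfbp7 was called in 4, Cd5l in 6, and Pdcd1, Kcnk5 and Slc30a4 in 7 each, and each of the others in 8 to 10, where both small RNAs had 10 such settings. The direction of the 20 genes was the same in every setting run, and DESeq2 called all 20 among 177 genes.

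**Figure D1:**
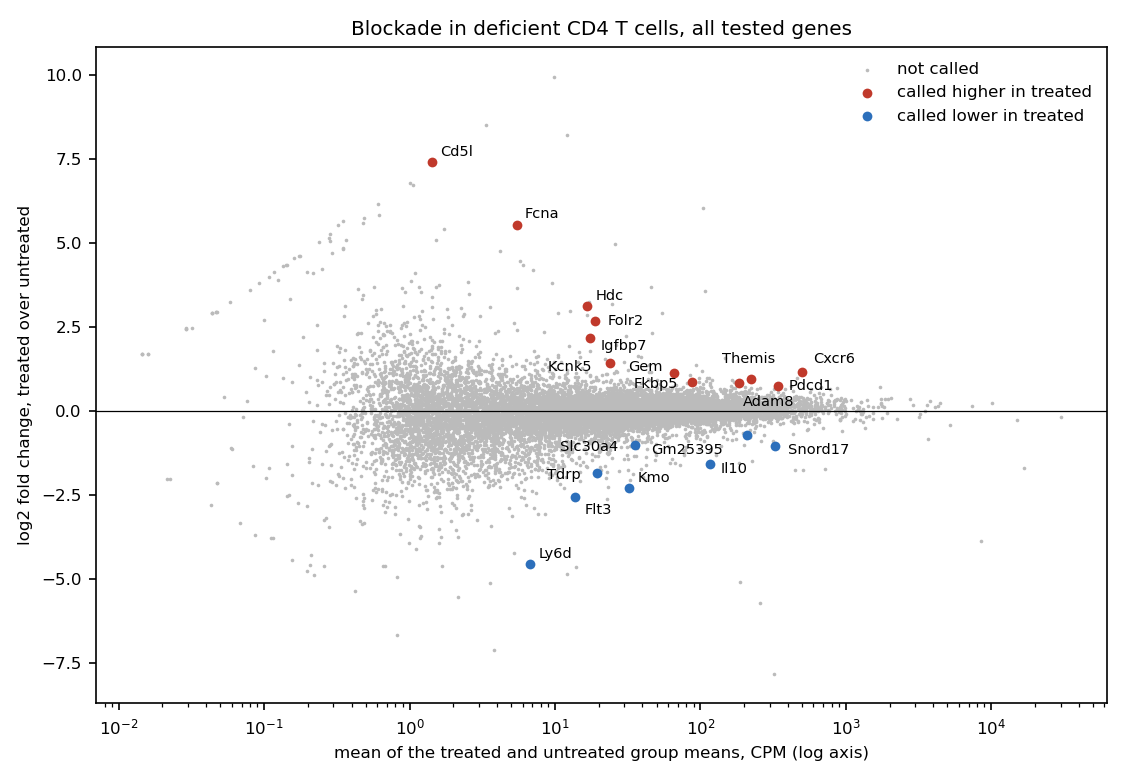
Log2 fold change of treated over untreated deficient CD4 cells (vertical axis) against the mean CPM of both groups (horizontal log axis), 1 point per tested gene. The 12 genes called higher (red) and the 8 called lower (blue) are named; most of the 14080 genes lie near 0.

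Genes of T cell receptor signalling, inhibition and homing were among those that rose. Pdcd1 (chromosome 1, 94038305 to 94052553, minus strand), which encodes the target of the blocking antibody, was at 422, 526 and 345 CPM in treated cells and at 262, 231 and 277 CPM in untreated cells. Every treated library was above every untreated one, and the rise was 1.68-fold (log2 fold change 0.75 ± 0.14 SE, edgeR adjusted p = 0.0406). Cxcr6 (chromosome 9, 123806475 to 123811760, plus strand), a chemokine receptor of tissue-resident and tumor-infiltrating T cells, was at 646, 914 and 529 CPM in treated cells and at 253, 312 and 362 CPM in untreated cells. Treated replicate 2 was the highest and the groups did not overlap (2.25-fold, log2 1.17 ± 0.18, edgeR adjusted p = 0.0104). Themis, a regulator of signalling from the T cell receptor, was at 297, 346 and 236 CPM in treated cells and at 136, 168 and 152 CPM in untreated cells (0.94 ± 0.17, edgeR adjusted p = 0.0315). Pdcd1 was not called when the 9 CD4 libraries or the 6 deficient CD4 libraries were fitted alone, Themis not in the first of these and Cxcr6 not in the second.

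4 further T cell or general genes rose. Fkbp5, a co-chaperone of the glucocorticoid receptor, was at 113, 130 and 96.4 CPM in treated cells and at 60.4, 68 and 56.6 CPM in untreated cells (0.87 ± 0.15, edgeR adjusted p = 0.0294). Gem, a small GTP-binding protein induced in activated T cells, was at 105, 97.6 and 67.8 CPM in treated cells and at 37, 46 and 41.3 CPM in untreated cells (1.12 ± 0.21, adjusted p = 0.041). Adam8, a membrane metalloprotease of leukocytes, was at 209, 267 and 231 CPM in treated cells and at 141, 135 and 120 CPM in untreated cells (0.84 ± 0.17, adjusted p = 0.0413). The potassium channel gene Kcnk5 was at 29.8, 51.5 and 24.6 CPM in treated cells and at 11.3, 17.3 and 9.05 CPM in untreated cells (1.44 ± 0.27, adjusted p = 0.0396). For Kcnk5 and Cxcr6 the highest treated library was replicate 2, and for Gem it was replicate 1. The summed level of 12 pan T cell markers was also higher, at 5711, 5679 and 5079 CPM in treated cells and at 4078, 4250 and 4690 CPM in untreated cells, with 7 of the 12 above in all treated libraries (58.3%, against 10.1% of all tested genes) and 0 called. Its part in these rises was not tested.

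The promoter windows of Pdcd1 and Cxcr6, from RefSeq (GRCm38.p6, 250 bases before to 50 after the start), are shown as those of T cell receptors among the called genes. Pdcd1 is at chr1:94052504-94052803 on the minus strand and Cxcr6 at chr9:123806227-123806526 on the plus strand. Capitals mark GGAAA on either strand (TTTCC on the printed one), the core of NFAT sites. The AP-1 motif TGANTCA, searched on both strands, was in neither window.
Pdcd1: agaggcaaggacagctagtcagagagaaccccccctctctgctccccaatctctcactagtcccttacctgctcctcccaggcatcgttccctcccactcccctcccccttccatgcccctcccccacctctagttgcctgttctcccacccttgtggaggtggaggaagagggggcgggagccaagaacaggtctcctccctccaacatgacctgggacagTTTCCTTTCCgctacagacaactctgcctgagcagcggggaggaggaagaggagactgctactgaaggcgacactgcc
Cxcr6: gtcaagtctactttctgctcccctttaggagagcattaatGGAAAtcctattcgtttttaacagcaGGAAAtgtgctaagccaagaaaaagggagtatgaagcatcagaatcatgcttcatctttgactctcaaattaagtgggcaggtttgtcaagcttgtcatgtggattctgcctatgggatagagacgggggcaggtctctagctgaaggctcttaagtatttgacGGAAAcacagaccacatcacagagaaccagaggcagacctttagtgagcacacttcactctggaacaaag
Such matches are common. GGAAA was present in 61.3% of all 32851 promoter windows and in 5 of the 16 windows of called genes, and TGANTCA in 7.81% of all windows and in 1 of the 16. Windows were found for 14 of the called genes. A match is a string of letters in the window and not a measured binding site.

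Il10 was the cytokine gene that fell. Il10 (chromosome 1, 131019845 to 131024974, plus strand), which encodes an anti-inflammatory cytokine of regulatory and chronically stimulated T cells and of myeloid cells, was at 57.6, 38.9 and 76.9 CPM in treated cells and at 166, 195 and 163 CPM in untreated cells. The highest treated library had less than the lowest untreated one, and the level of treated cells was 0.335 times that of untreated cells (-1.58 ± 0.28, edgeR adjusted p = 0.0396). In floxed CD4 cells Il10 was at 221, 192 and 135 CPM. Il10 was 1 of 21 T cell cytokine genes tested and the only one called. The others were mostly higher in treated cells, with a list median of 1.07 and 19 of 21 values above 0, but they varied between the treated libraries. Il5, a Th2 cytokine, was at 11.8, 21.4 and 1.43 CPM in treated cells and at 0.649, 0.408 and 0.566 CPM in untreated cells (4.35 ± 0.92, edgeR adjusted p = 0.0978). Lta, lymphotoxin alpha, was at 37.2, 44.9 and 16.7 CPM in treated cells and at 8.7, 11 and 14.4 CPM in untreated cells (1.54 ± 0.34, adjusted p = 0.075). Ifng, interferon gamma, was at 149, 193 and 64.2 CPM in treated cells and at 37.7, 47.7 and 72.7 CPM in untreated cells, so the groups overlapped (1.37 ± 0.44, adjusted p = 0.263). Il21, a cytokine of follicular helper cells, overlapped as well, at 25.4, 50.3 and 5.35 CPM in treated cells and at 5.97, 8.57 and 8.48 CPM in untreated cells (1.79 ± 0.63, adjusted p = 0.287). In these 4 genes treated replicate 3 was the lowest treated library and replicate 2 the highest.

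Slc30a4 and Tdrp were 2 further protein-coding genes that fell. Slc30a4, a zinc transporter, was at 24.6, 19.3 and 27.1 CPM in treated cells and at 63.2, 42 and 38.2 CPM in untreated cells (-1.0 ± 0.20, edgeR adjusted p = 0.0413). Tdrp was at 10.7, 4.82 and 9.08 CPM in treated cells and at 43.9, 19.6 and 29.1 CPM in untreated cells (-1.85 ± 0.32, adjusted p = 0.0286).

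Of the remaining called genes, Fcna, Folr2, Cd5l and Hdc rose and Ly6d, Flt3 and Kmo fell, and these are known mainly from cells other than T cells. Folr2, a folate receptor of tissue macrophages, was at 35.6, 29.8 and 33.1 CPM in treated cells and at 4.16, 6.12 and 5.09 CPM in untreated cells. The treated libraries were close to each other and the rise was 6.42-fold (log2 2.68 ± 0.39, edgeR adjusted p = 0.0104). Fcna, a lectin made by macrophages, was at 16.1, 5.72 and 10.2 CPM in treated cells and at 0.39, 0 and 0.283 CPM in untreated cells, where it had 4 reads in all (5.54 ± 0.85, adjusted p = 0.0104). Cd5l, a secreted macrophage protein, had 74 reads in treated cells and 0 in untreated cells, which makes it at least 18.2-fold higher against a floor of 3 counts over the untreated group (adjusted p = 0.0413). Hdc, the enzyme that makes histamine, was at 22.2, 42.8 and 24.5 CPM in treated cells and at 1.56, 5.71 and 2.83 CPM in untreated cells (3.11 ± 0.59, adjusted p = 0.0413). Igfbp7, a secreted binding protein of stromal and endothelial cells, was at 21, 51.5 and 13.1 CPM in treated cells and at 6.23, 3.67 and 9.05 CPM in untreated cells (2.18 ± 0.43, adjusted p = 0.0438). The call of Igfbp7 was lost in most settings, and its log2 fold change ran down to 1.5 without treated replicate 2, its highest library. Floxed CD4 cells had 95.4, 66.2 and 177 CPM of Folr2 and 21.2, 9.47 and 23.4 CPM of Fcna, more than the untreated deficient cells in each library. The floxed libraries also held more macrophage transcripts. Their macrophage and monocyte markers summed to 22073, 16820 and 33495 CPM, above every deficient CD4 library. The part of macrophages in the floxed levels of Folr2 and Fcna was not tested.

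Flt3, the growth factor receptor of dendritic cell precursors, was at 3.75, 6.33 and 2.29 CPM in treated cells and at 27.8, 20.8 and 20.9 CPM in untreated cells (-2.57 ± 0.48, edgeR adjusted p = 0.039). Ly6d, a surface protein of B lineage and plasmacytoid dendritic cell precursors, was at 0.436, 1.2 and 0.287 CPM in treated cells and at 20.3, 8.43 and 9.9 CPM in untreated cells (-4.55 ± 0.79, adjusted p = 0.0294). Kmo, an enzyme of tryptophan breakdown found in myeloid cells, was at 13.2, 8.43 and 11.1 CPM in treated cells and at 62.1, 46.8 and 53.2 CPM in untreated cells (-2.28 ± 0.39, adjusted p = 0.0281). These 3 genes were low in all treated libraries alike.

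Markers of other cells moved unevenly beside these genes. The 21 macrophage and monocyte markers summed to 5638, 6929 and 7946 CPM in treated cells and to 5859, 7849 and 7850 CPM in untreated cells, with 0 called and a median log2 fold change of -0.12. Of the 21, 0 lay above and 1 lay below in all treated libraries (10.1% and 9.9% of all tested genes). The 1 below was Cd14, at 28.1, 36.1 and 49 CPM in treated and 55.3, 52.6 and 58.5 CPM in untreated cells (-0.55 ± 0.57, edgeR adjusted p = 0.762). The complement genes C1qa and C1qb, which macrophages make, overlapped, with C1qa at 146 to 214 CPM in treated cells and 73.6 to 158 CPM in untreated cells, and C1qb at 136 to 212 CPM in treated cells and 79.9 to 144 CPM in untreated cells. 3 other genes known from macrophages, Lyz1, Retnla and Lyve1, are not in that list, were named after their values were seen, and were higher in all treated libraries without being called. Lyz1, a lysozyme, was at 55.5, 120 and 80.8 CPM in treated cells and at 3.38, 8.84 and 7.92 CPM in untreated cells (3.69 ± 0.68, edgeR adjusted p = 0.0646). Retnla, a secreted protein of alternatively activated macrophages, was at 248, 187 and 182 CPM in treated cells and at 0.519, 1.09 and 11 CPM in untreated cells (6.04 ± 1.25, adjusted p = 0.113). Lyve1, a hyaluronan receptor of some tissue macrophages and of lymphatic vessels, was at 7.07, 3.31 and 3.82 CPM in treated cells and at 0, 1.09 and 0 CPM in untreated cells (3.49 ± 0.91, adjusted p = 0.144). Cd300c and Timd4 were looked up together with these 3 genes. Cd300c was lower in all treated libraries (-7.1 ± 1.47, edgeR adjusted p = 0.0646). It was at 0.0873, 0 and 0 CPM in treated and at 11.6, 8.02 and 3.11 CPM in untreated cells. Timd4 had too few counts to be tested. The median of the macrophage list was 0.07 without treated replicate 1.

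The 15 markers of dendritic cells and antigen presentation summed to 2405, 3781 and 3331 CPM in treated cells and to 3582, 4893 and 5563 CPM in untreated cells, all 15 values were negative, and Flt3 was the only one called. Cd209a, a dendritic cell lectin, was at 10.8, 21.4 and 17 CPM in treated cells and at 40.5, 66.1 and 92.7 CPM in untreated cells (-2.04 ± 0.50, edgeR adjusted p = 0.132). In bulk libraries, fewer cells of a type and less RNA per cell cannot be told apart. The part of these cells in the changes of Fcna, Folr2, Cd5l, Hdc, Flt3, Ly6d and Kmo was not tested.

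Melanoma transcripts varied widely between libraries. The 16 markers summed to 663, 467 and 2104 CPM in treated cells and to 4604, 3941 and 1964 CPM in untreated cells, so treated replicate 3 had more than untreated replicate 3. Their median log2 fold change was -1.67 with 0 called. The melanocyte transcription factor Sox10 was at 5.93, 2.11 and 12.7 CPM in treated cells and at 26.6, 24.9 and 12.2 CPM in untreated cells (-1.56 ± 0.64, edgeR adjusted p = 0.366). The 8 fibroblast markers summed to 2.44, 167 and 0.956 CPM in treated cells and to 2.34, 21.8 and 2.83 CPM in untreated cells, so the fibroblast signal was highest in treated replicate 2. The 6 erythroid markers summed to 1.4, 0.602 and 6.69 CPM in treated cells and to 25.1, 8.43 and 16.1 CPM in untreated cells. Natural killer cell markers summed to 195, 278 and 246 CPM in treated cells and to 278, 397 and 421 CPM in untreated cells. Sums were low for neutrophil markers (9.56 to 13.6 CPM in treated and 11.4 to 19.2 CPM in untreated cells) and for B and plasma cell markers (20.6 to 26.6 CPM in treated and 19.7 to 43.6 CPM in untreated cells). They were likewise low for gamma delta T cell markers (4.82 to 15.4 CPM in treated and 11.9 to 22.1 CPM in untreated cells), and endothelial markers summed to 119 to 128 CPM in treated and 136 to 144 CPM in untreated cells. Most of the endothelial sum was Pecam1 alone, at 102 to 115 CPM in treated and 110 to 115 CPM in untreated cells. No marker was called in these 4 lists.

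**Figure D2:**
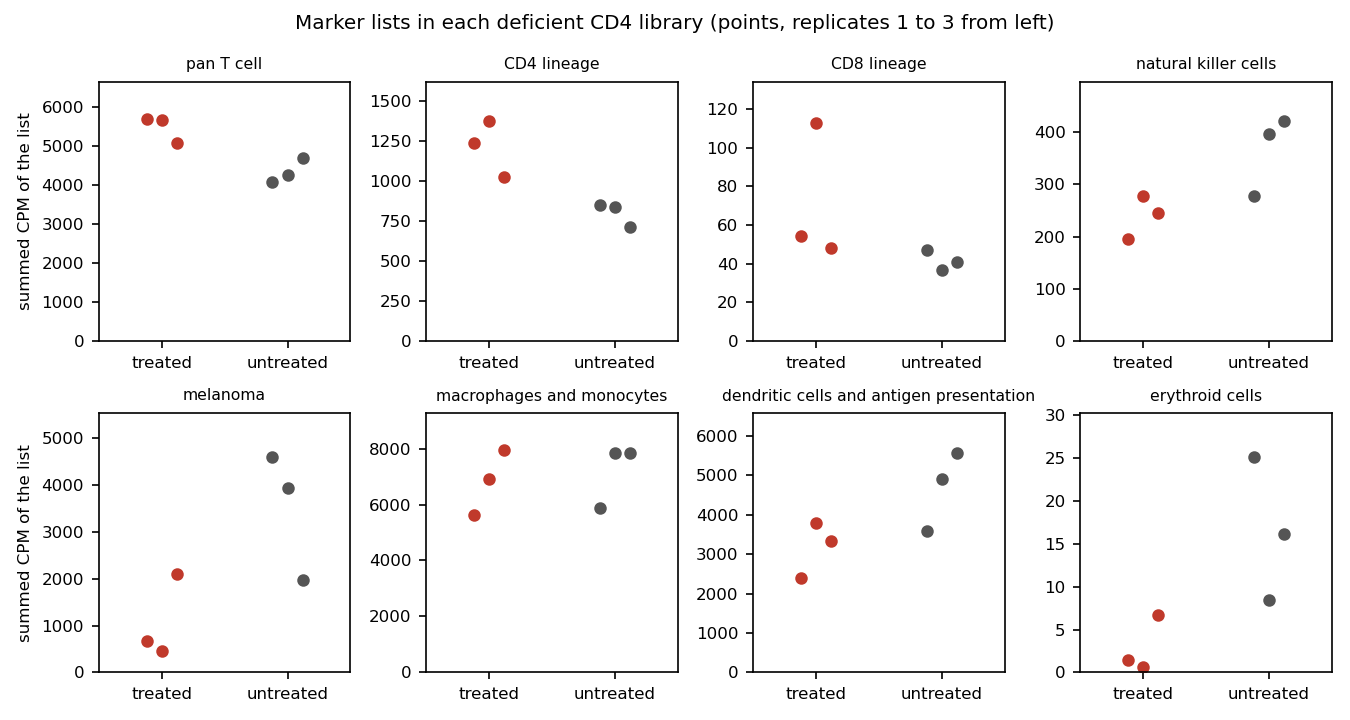
Summed CPM of the marker lists (vertical axes from 0) in the 3 treated (red, left) and 3 untreated (grey, right) deficient CD4 libraries, 1 point per library. Pan T cell and CD4 lineage sums are higher in all treated libraries; melanoma sums run from 467 to 2104 CPM in treated and from 1964 to 4604 CPM in untreated libraries.

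The remaining calls were small nucleolar and Cajal body RNAs, which guide the modification of other RNAs. Snord17, a box C/D small nucleolar RNA, was at 206, 229 and 216 CPM in treated cells and at 494, 487 and 340 CPM in untreated cells. The treated libraries lay within 206 to 229 CPM, below every untreated library (0.492 times, log2 -1.02 ± 0.16, edgeR adjusted p = 0.0104). Gm25395, a small Cajal body RNA model, was at 162, 151 and 163 CPM in treated cells and at 272, 276 and 233 CPM in untreated cells (-0.71 ± 0.14, adjusted p = 0.0406). Both lie within introns of protein-coding genes on the same strand. The host of Snord17, Snx5, averaged 476 ± 10.0 CPM in treated cells and 490 ± 38.7 CPM in untreated cells (SD, n = 3 each, log2 -0.04 ± 0.13, edgeR adjusted p = 0.939). The host of Gm25395, Atg16l1, averaged 77.5 ± 5.85 CPM in treated cells and 83.1 ± 13.6 CPM in untreated cells (-0.10 ± 0.13, adjusted p = 0.812). The transcripts, from GENCODE M21 on GRCm38, are shown because they are the only called genes whose product is the RNA itself. Snord17 is at chr2:144265979-144266216 on the minus strand and Gm25395 at chr1:87776938-87777209 on the plus strand, and capitals mark TGATGA, the core of the C box, searched on the transcript strand.
Snord17: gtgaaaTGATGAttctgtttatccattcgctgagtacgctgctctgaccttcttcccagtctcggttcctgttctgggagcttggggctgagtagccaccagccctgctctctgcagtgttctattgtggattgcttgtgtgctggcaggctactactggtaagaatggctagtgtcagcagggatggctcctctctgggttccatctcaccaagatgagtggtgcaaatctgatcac
Gm25395: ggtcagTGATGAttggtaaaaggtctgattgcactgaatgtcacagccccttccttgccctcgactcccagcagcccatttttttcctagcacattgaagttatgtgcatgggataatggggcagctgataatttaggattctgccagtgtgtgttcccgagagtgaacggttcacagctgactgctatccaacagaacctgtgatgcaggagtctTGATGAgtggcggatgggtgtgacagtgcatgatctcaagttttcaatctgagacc
As a class, 76 small nucleolar RNAs were tested, with a median log2 fold change of -0.37. Of these, 13 were below in all treated libraries (17.1%, against 9.9% of all tested genes) and 1 was above. Small nucleolar and Cajal body RNAs took 0.218, 0.199 and 0.208% of counts in treated cells and 0.345, 0.322 and 0.251% in untreated cells. Snord17 and Gm25395 were also lower in treated CD8 cells (-1.25 ± 0.16 and -0.99 ± 0.14, edgeR adjusted p = 3.82e-05 and 8.06e-05).

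**Figure D3:**
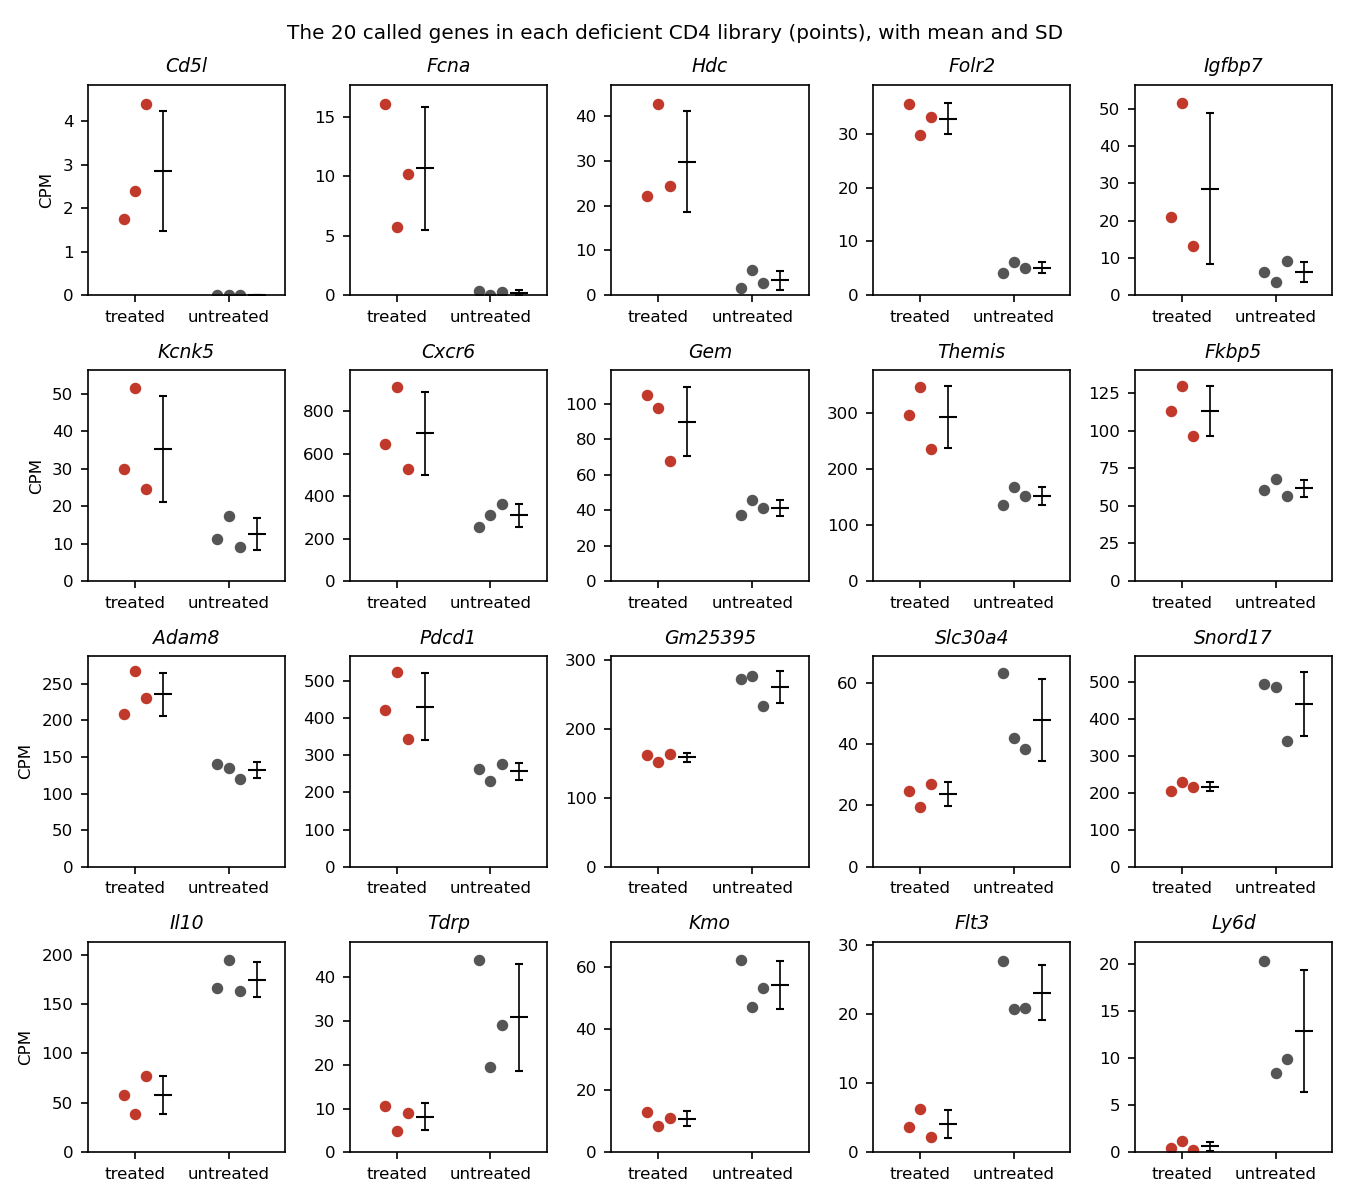
CPM (vertical axes, each from 0) of the 20 called genes in the 3 treated (red, left) and 3 untreated (grey, right) deficient CD4 libraries, with the mean and SD of each group at its right. In no gene do the groups overlap; Folr2 and Snord17 have the treated libraries close together, and Igfbp7 and Kcnk5 have 1 high treated library.

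Apart from Pdcd1, the antibody targets and other inhibitory receptors were not called. Ctla4, the other targeted receptor, was at 1206, 873 and 1315 CPM in treated cells and at 1346, 1323 and 1434 CPM in untreated cells (-0.27 ± 0.17, edgeR adjusted p = 0.579). Every treated library was below every untreated one, by a narrow margin and short of a call. Cd274, which encodes PD-L1, was at 160, 135 and 158 CPM in treated cells and at 102, 156 and 123 CPM in untreated cells (0.25 ± 0.23, adjusted p = 0.72). Havcr2, which encodes the exhaustion receptor TIM-3, was at 106, 164 and 82.6 CPM in treated cells and at 71.7, 77.8 and 70.4 CPM in untreated cells, without overlap but short of a call (0.66 ± 0.27, adjusted p = 0.368). Lag3 averaged 39.1 ± 9.73 CPM in treated cells and 46.1 ± 7.33 CPM in untreated cells, and Tigit 22 ± 3.65 CPM in treated cells and 21.8 ± 4.55 CPM in untreated cells (SD, n = 3 each). Of 23 inhibitory receptor and exhaustion genes tested, Pdcd1 alone was called, and the list median was 0.16 (0.10 without treated replicate 3). Lair1, a collagen receptor that inhibits leukocytes, was at 34.7, 48.5 and 46.3 CPM in treated cells and at 78.8, 77.8 and 65.3 CPM in untreated cells (-0.79 ± 0.17, adjusted p = 0.075).

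Regulatory T cell genes showed no common direction. Foxp3, their defining transcription factor, was at 63.7, 73.2 and 62.2 CPM in treated cells and at 63.6, 60.8 and 80 CPM in untreated cells, an overlap in both directions (-0.04 ± 0.41, edgeR adjusted p = 0.988). Il2ra, the high-affinity interleukin 2 receptor, averaged 132 ± 26.6 CPM in treated cells and 119 ± 26.8 CPM in untreated cells, and Icos, a costimulatory receptor, 554 ± 68.6 CPM in treated cells and 654 ± 45.9 CPM in untreated cells (SD, n = 3 each). Of 23 genes of the list Il10 alone was called, 12 were positive and 11 negative, and the median was 0.01, which changed sign in 3 of 17 other settings. Il1rl1, the interleukin 33 receptor, was at 57.7, 70.2 and 62.4 CPM in treated cells and at 26.7, 25.6 and 33.4 CPM in untreated cells (1.16 ± 0.26, adjusted p = 0.075). Il1rl1 also stands in the Th2 list, where 7 of 7 genes were positive (median 0.85) and 0 were called. Of the 7, 5 lay above in all treated libraries (71.4%, against 10.1% of all tested genes).

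Effector genes lay mostly on the higher side without being called. Of 28 cytotoxic genes 0 were called, 10 lay above and 2 below in all treated libraries (background 10.1% and 9.9%), and the median was 0.18 (0.34 without treated replicate 3 and 0.31 without untreated replicate 2). Gzmb, granzyme B, overlapped between the groups, at 900, 700 and 947 CPM in treated cells and at 680, 1011 and 837 CPM in untreated cells (0.01 ± 0.25, edgeR adjusted p = 0.994). Prf1, perforin, was at 67.4, 177 and 103 CPM in treated cells and at 71.7, 80.5 and 61.9 CPM in untreated cells (0.67 ± 0.43, adjusted p = 0.587). Gzmk, a granzyme of memory-like cells, was at 16.9, 13.3 and 11.9 CPM in treated cells and at 4.03, 7.62 and 6.22 CPM in untreated cells (1.25 ± 0.28, adjusted p = 0.075). Gzmc was at 113, 423 and 58.9 CPM in treated cells and at 24.2, 10.5 and 14.1 CPM in untreated cells (3.56 ± 0.75, adjusted p = 0.116), with treated replicate 2 far above the rest. Cd8a was highest in that library too, and the part of CD8 cells in it was not tested. Among 18 Th1 genes Cxcr6 alone was called, and the median of 0.52 was 0.25 without untreated replicate 1. Tbx21, the Th1 transcription factor, averaged 82.0 ± 22.3 CPM in treated cells and 84.1 ± 9.00 CPM in untreated cells, while Il18r1, the interleukin 18 receptor, was at 316, 317 and 263 CPM in treated cells and at 178, 206 and 182 CPM in untreated cells (0.66 ± 0.13, adjusted p = 0.054). The follicular helper genes were not called except Pdcd1, with Bcl6 at 22.8 ± 14.2 CPM in treated cells and 13.2 ± 3.66 CPM in untreated cells, and Cxcr5 at 9.31 ± 4.41 CPM in treated cells and 8.17 ± 1.80 CPM in untreated cells (SD, n = 3 each).

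Naive and memory genes lay on the lower side. Of 19 tested 0 were called, 16 were negative, 8 lay below (42.1%, against 9.9% of all tested genes) and 1 above (5.26%, against 10.1%) in all treated libraries. The median was -0.61, and -0.37 without untreated replicate 1. Ccr7, a chemokine receptor that guides cells to lymph nodes, was at 50.8, 59 and 37.7 CPM in treated cells and at 166, 85 and 72.1 CPM in untreated cells (-1.15 ± 0.31, edgeR adjusted p = 0.178). Tcf7, a transcription factor of memory and stem-like T cells, was at 95.6, 53.6 and 70.7 CPM in treated cells and at 181, 115 and 118 CPM in untreated cells (-0.90 ± 0.47, adjusted p = 0.498). S1pr1, needed to leave tissue, was at 216, 97 and 176 CPM in treated cells and at 344, 233 and 243 CPM in untreated cells (-0.74 ± 0.27, adjusted p = 0.31). In these 3 genes untreated replicate 1 was the highest library. Cd69, which opposes S1pr1 and is the list member above in all treated libraries, was at 475, 361 and 379 CPM in treated cells and at 258, 259 and 312 CPM in untreated cells (0.55 ± 0.15, adjusted p = 0.153).

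Cell cycle genes lay on the higher side. Of 31 genes of G2 and mitosis 0 were called, 30 were positive and 17 lay above in all treated libraries (54.8%, against 10.1% of all tested genes), with a median of 0.40. Mki67, a marker of cycling cells, was at 628, 739 and 658 CPM in treated cells and at 478, 440 and 454 CPM in untreated cells (0.56 ± 0.20, edgeR adjusted p = 0.285). Tpx2, a spindle protein, was at 109, 138 and 124 CPM in treated cells and at 80.6, 87.3 and 80.9 CPM in untreated cells (0.57 ± 0.16, adjusted p = 0.167). Of 32 genes of G1 to S 13 lay above and 0 below (median 0.23, and 0.36 without treated replicate 2 and untreated replicate 3), and of 58 replication-dependent histone genes 25 lay above and 0 below (median 0.33), with 0 called in either list. Members of such lists are expressed together, so these counts are not separate observations.

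Genes of the type I interferon response lay on the higher side in treated cells and were uneven in untreated cells. Of 37 genes 36 were positive, 15 lay above (40.5%, against 10.1% of all tested genes) and 0 below (against 9.9%) in all treated libraries, and 0 were called. The median was 0.47, and 0.29 without untreated replicate 1. Ifit1 was at 173, 137 and 136 CPM in treated cells and at 50.8, 123 and 75.5 CPM in untreated cells (0.84 ± 0.25, edgeR adjusted p = 0.205). Oas3 was at 140, 123 and 127 CPM in treated cells and at 37.5, 87.5 and 72.1 CPM in untreated cells (0.99 ± 0.29, adjusted p = 0.209). Both are induced by interferon and act against viral RNA, and untreated replicate 1 was the lowest in each. Of 38 interferon gamma response genes 4 lay above (10.5%) and 2 below (5.26%), close to or under the shares of all tested genes. Their median of 0.18 was 0.09 without untreated replicate 1 and 0.27 without untreated replicate 2.

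Genes of ribosomal proteins, oxidative phosphorylation, cholesterol synthesis and the amino acid stress response lay on the lower side. Of 82 cytosolic ribosomal protein genes 35 lay below (42.7%, against 9.9% of all tested genes) and 1 above (1.22%, against 10.1%) in all treated libraries, with a median of -0.22 and 0 called. Without treated replicate 2 and untreated replicate 3 that median was -0.13. Rpl8 was at 1264, 1126 and 1137 CPM in treated cells and at 1497, 1404 and 1517 CPM in untreated cells (-0.32 ± 0.11, edgeR adjusted p = 0.248). Of 29 oxidative phosphorylation genes 9 lay below (31%) and 0 above, and the median of -0.14 was -0.05 without untreated replicate 3 and -0.07 without treated replicate 2. Of 23 cholesterol synthesis genes 5 lay below (21.7%) and 0 above, and the median of -0.28 was -0.15 without treated replicate 1. Msmo1, a sterol oxidase, was at 65.2, 66.9 and 83 CPM in treated cells and at 104, 136 and 118 CPM in untreated cells (-0.73 ± 0.16, adjusted p = 0.0646). Of 20 genes of the amino acid stress response 18 were negative and 4 lay below (20%), and the median of -0.22 was -0.07 without untreated replicate 1 and -0.36 without untreated replicate 3. Among them was Asns, asparagine synthetase, at 39.1, 34.6 and 51.6 CPM in treated cells and at 89.7, 68.5 and 59.9 CPM in untreated cells (-0.79 ± 0.24, adjusted p = 0.212). Glycolysis and hypoxia genes had slightly positive medians (0.07 and 0.04) and 0 calls, and the hypoxia median was -0.03 without treated replicate 3.

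Of 37 reported miR-155 targets tested, Pdcd1 alone was called, 16 were positive and 21 negative, and the median was -0.06 (0.05 without treated replicate 2). Socs1, a brake on cytokine signalling, averaged 66.8 ± 6.94 CPM in treated cells and 56.8 ± 8.82 CPM in untreated cells (0.23 ± 0.15, edgeR adjusted p = 0.583). Inpp5d, an inositol phosphatase, was at 360, 354 and 348 CPM in treated cells and at 262, 289 and 277 CPM in untreated cells (0.36 ± 0.15, adjusted p = 0.353).

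**Figure D4:**
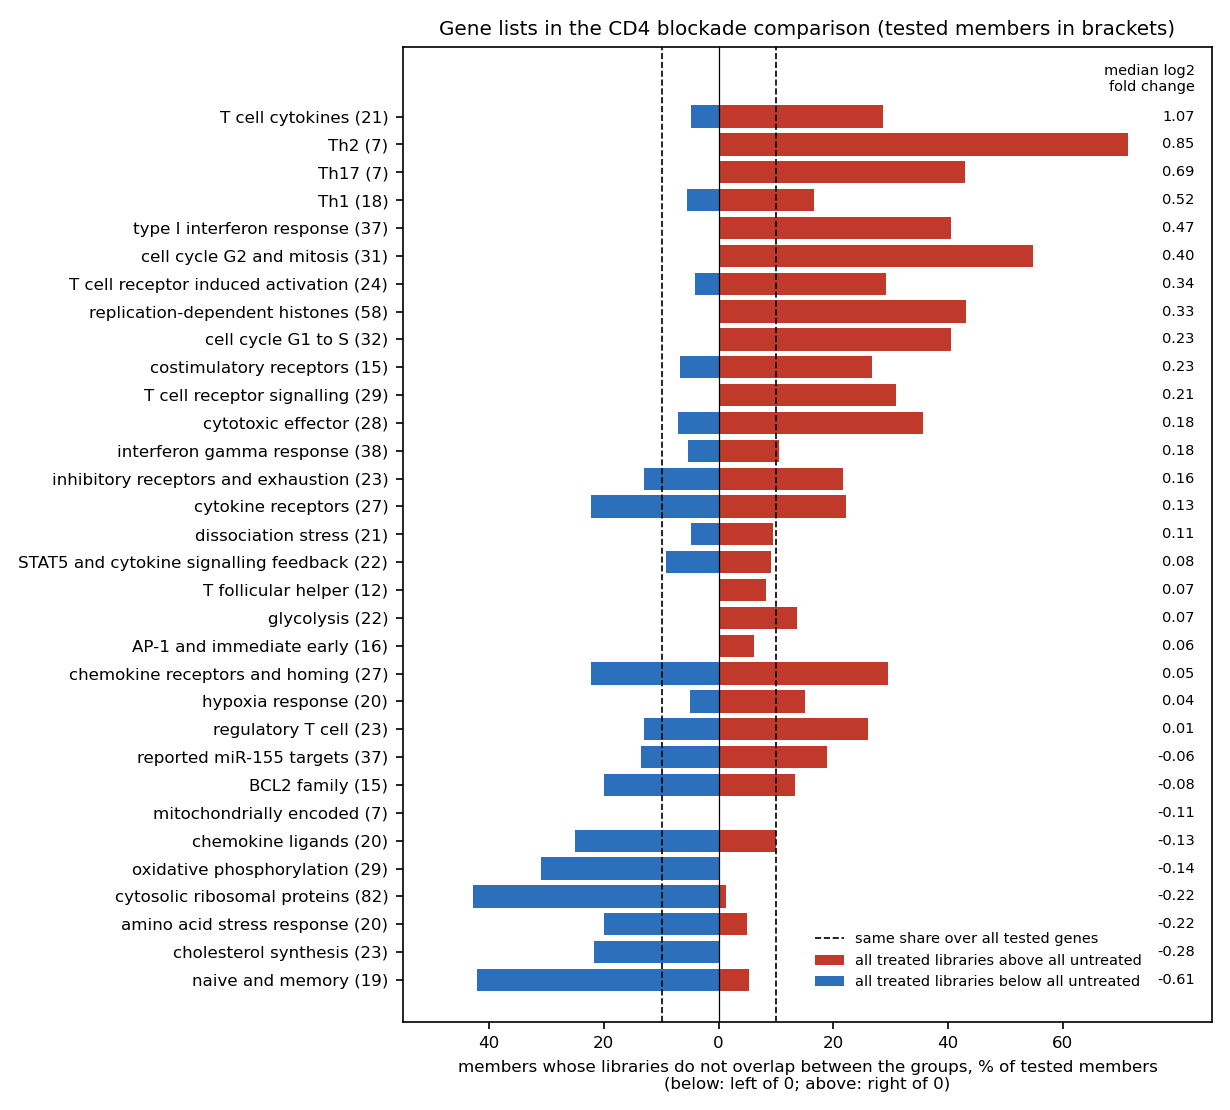
Share of each list's tested members (number in brackets) whose 3 treated libraries all lie above (red, right) or all below (blue, left) the 3 untreated libraries, with the list's median log2 fold change at the right. Dashed lines mark the shares over all tested genes, 10.1% above and 9.9% below. Th2 reaches 71.4% above (7 genes tested) and G2 and mitosis 54.8% above. Ribosomal proteins reach 42.7% below, and naive and memory genes 42.1% below.

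The response of CD4 cells was set against that of deficient CD8 cells by testing the difference of the blockade effects, which differed for 113 of 14080 genes (0.803%), 32 higher and 81 lower in CD4 cells than in CD8 cells (0.227% and 0.575%). Treated CD8 replicate 2 was the shallowest library of the series, at 3.2 M counts. In it 28.9% of counts fell on rRNA-like and small RNA models, and without it the difference was called for 56 genes. Of the 20 genes called in CD4 cells, 15 had the same sign in CD8 cells. Of the 20, 11 were called in CD8 cells in the same direction and Il10 in the opposite one. Il10 rose in CD8 cells, to 7.58, 4.97 and 5.66 CPM in treated against 0.354, 2.68 and 1.27 CPM in untreated CD8 cells (2.15 ± 0.45), and the difference of the effects was -3.73 ± 0.52 (edgeR adjusted p = 0.00236). Pdcd1 rose in both cell types and less in CD4 cells, by 0.75 ± 0.14 in CD4 and 1.66 ± 0.15 in CD8 cells (difference -0.92 ± 0.20, adjusted p = 0.0345). Cxcr6 rose by 1.17 ± 0.18 in CD4 and 2.19 ± 0.19 in CD8 cells, and the difference was short of a call (-1.02 ± 0.25, adjusted p = 0.0676).

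Ctla4, Gzmb, Lag3 and Havcr2 rose in CD8 cells and were not called in CD4 cells, and each of these differences was called. Ctla4 had log2 fold changes of -0.27 ± 0.17 in CD4 and 1.67 ± 0.18 in CD8 cells (difference -1.94 ± 0.25, edgeR adjusted p = 0.000394). Gzmb had 0.01 ± 0.25 in CD4 and 2.63 ± 0.26 in CD8 cells (-2.62 ± 0.36, adjusted p = 0.002). Klrg1, a receptor of terminal effector cells, had -0.23 ± 0.21 in CD4 and 3.02 ± 0.29 in CD8 cells (-3.26 ± 0.36, adjusted p = 0.00015). Over all tested genes the difference was called lower in CD4 cells for 0.575%. It was called for 8 of 28 cytotoxic genes and 7 of 23 inhibitory receptor genes, all lower in CD4 cells. For the cell cycle lists it was called for 0 of 31 genes of G2 and mitosis and 0 of 32 of G1 to S, where the medians were 0.40 and 0.23 in CD4 cells and 0.79 and 0.72 in CD8 cells.

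For Folr2, Fcna, Mertk and Abca9 the difference was called in the other direction, higher in CD4 cells. Folr2 rose by 2.68 ± 0.39 in CD4 cells and had -1.29 ± 0.54 in CD8 cells (difference 3.98 ± 0.66, edgeR adjusted p = 0.00523). Mertk, a receptor with which macrophages take up dying cells, had a log2 fold change of 1.06 ± 0.35 in CD4 cells and fell by 2.12 ± 0.45 in CD8 cells (3.17 ± 0.57, adjusted p = 0.00631). In the macrophage list 0 of 21 genes were called in CD4 cells, and 14 were called lower and 1 higher in CD8 cells. Over all tested genes 5.53% were called lower and 8.25% higher in CD8 cells. The list medians were -0.12 in CD4 and -1.55 in CD8 cells, but the difference itself was called for 0 of the 21 genes. The part of macrophages in the differences of Folr2, Fcna, Mertk and Abca9 was not tested. The differences of Pdcd1, Lag3, Havcr2 and Fcna lost their call in 7 to 10 of 20 other settings, mostly those that leave out a library of either cell type, while those of Ctla4, Gzmb, Klrg1 and Il10 were called in all 20. The differences of Folr2 and Mertk were lost with limma voom alone (adjusted p = 0.199 and 0.127).

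**Figure D5:**
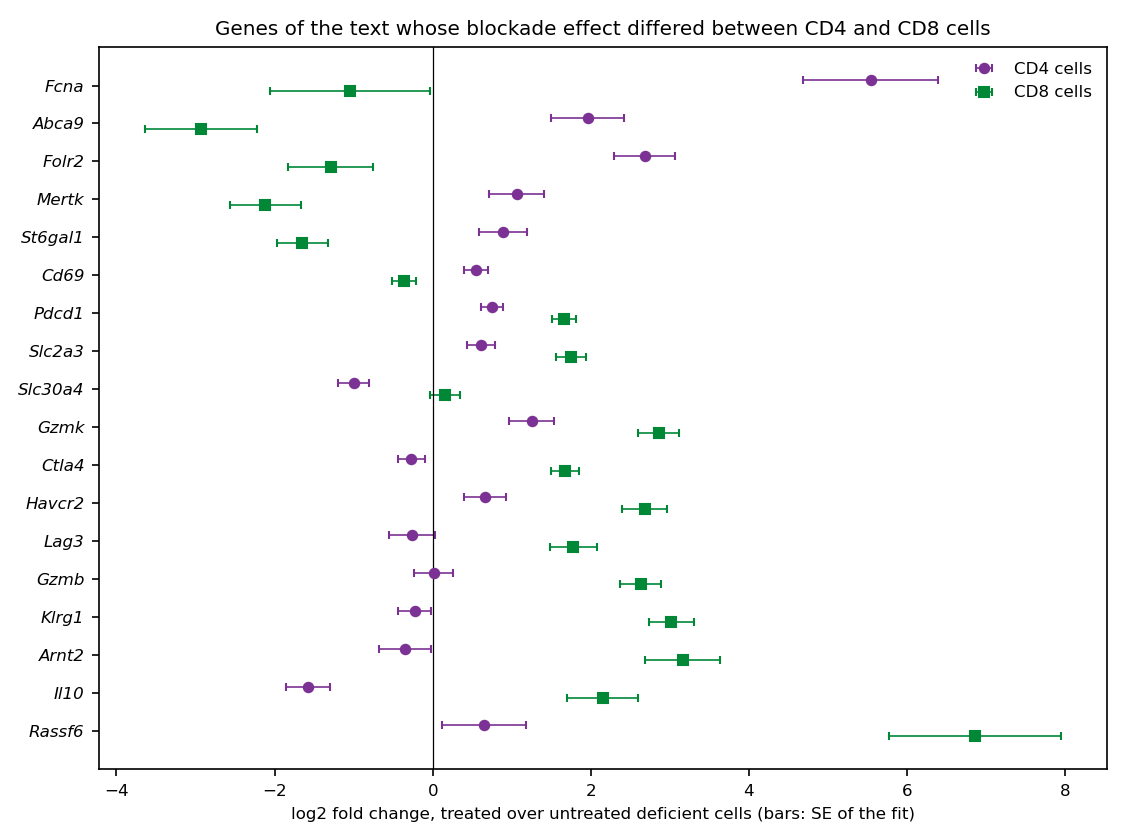
Log2 fold change of treated over untreated deficient cells (horizontal axis, bars are the SE of the fit) in CD4 (purple circles) and CD8 cells (green squares) for 18 named genes whose blockade effect differed between the cell types. Il10 lies at -1.58 in CD4 and 2.15 in CD8 cells, and Ctla4 and Gzmb lie near 0 in CD4 cells alone.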

How the data were processed

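RNA of flow-sorted T cells was sequenced. The deposited files, 1 for each library, hold whole-number read counts for every gene. Per the file headers, the authors counted with featureCounts 1.5.1 on Ensembl 87 gene models, in its reverse-stranded mode (strand option 2). The submitters' processing notes name GRCm38, STAR, featureCounts and DESeq2 without versions. Of 49671 gene models, 49326 were named through GENCODE M21, and start and end were identical for 91.5% of them. Gene coordinates come from the files.

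The raw counts of all 18 libraries, in 6 groups of 3, were fitted together in edgeR 4.0.16 under R 4.3.3 (low counts removed by filterByExpr, TMM, robust quasi-likelihood fit, 12 residual degrees of freedom, 14080 genes tested). Adjusted p-values are Benjamini-Hochberg values over all genes tested, called under 0.05. CPM values are TMM-scaled, and log2 fold changes carry the standard error of the fit. Alternatives used limma 3.58.1 (voom), DESeq2 1.42.0, other filters, scalings and library subsets.

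The comparison, gene lists and test designs were chosen with earlier results of these data known. Named genes are a fixed set of labels, antibody targets and T cell genes, and up to 12 called genes each way with a mean of at least 5 CPM and no overlap. Per list, called members or otherwise the 2 with the smallest p were eligible, and up to 5 genes each way for the difference between cell types. Cd5l, Snord17 and Gm25395, which that rule leaves out, and Snx5 and Atg16l1 (hosts of small RNAs) were named after their values were seen. So were Lta, Ccl1, Lyz1, Retnla, Lyve1, Cd14, Cd300c, Timd4 and further uncalled members of lists that had a call. Some genes that the rule selects are not reported here. What the replicate numbers stand for is not given in the labels. The correlations of same-numbered deviations between treated and untreated libraries were -0.00459, -0.0151 and -0.142. They show no pairing by number but, with 3 libraries per group, cannot exclude it.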

Additional observations from a re-analysis of the deposited data

Results flagged for a closer look

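The 18 genes below were set aside because the effect of blockade differed between deficient CD4 and CD8 cells by a test of the difference itself (edgeR's quasi-likelihood test, adjusted over all 14080 genes). Each value is the log2 fold change in CD4 cells minus that in CD8 cells, with its SE, and these genes are those named in the account, not a sample of all 113.

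Among inhibitory receptors, the difference was -0.92 ± 0.20 for Pdcd1 (edgeR adjusted p = 0.0345), -1.94 ± 0.25 for Ctla4 (0.000394), -2.04 ± 0.42 for Lag3 (0.0286) and -2.02 ± 0.39 for Havcr2 (0.0215). Lag3 had -0.26 ± 0.29 in CD4 and 1.78 ± 0.30 in CD8 cells, and Havcr2 0.66 ± 0.27 and 2.68 ± 0.28. Among effector genes it was -2.62 ± 0.36 for Gzmb (0.002), -1.6 ± 0.38 for Gzmk (0.0466) and -3.26 ± 0.36 for Klrg1 (0.00015). Gzmk had 1.25 ± 0.28 in CD4 and 2.86 ± 0.26 in CD8 cells. Il10 differed by -3.73 ± 0.52 (0.00236), as it fell in CD4 and rose in CD8 cells.

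The difference was -1.14 ± 0.26 for Slc2a3, a glucose transporter (edgeR adjusted p = 0.0412), and 0.92 ± 0.21 for Cd69 (0.0402). It was -1.16 ± 0.27 for Slc30a4 (0.0476), which fell in CD4 cells and had 0.16 ± 0.19 in CD8 cells. The largest negative differences also included Rassf6 (-6.21 ± 1.29, 0.0264) and Arnt2 (-3.51 ± 0.59, 0.00504). Rassf6 had 0 counts in the untreated CD8 libraries, so its fitted value depends on the prior count. Arnt2, a transcription factor, was at 24.8, 28.3 and 26.1 CPM in treated and 33.8, 40.7 and 26 CPM in untreated CD4 cells, against 3.1, 7.04 and 9.75 CPM in treated and 0.589, 0.383 and 1.27 CPM in untreated CD8 cells.

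The positive differences were 6.59 ± 1.36 for Fcna (edgeR adjusted p = 0.0215), 4.88 ± 0.84 for the lipid transporter Abca9 (0.00953), 3.98 ± 0.66 for Folr2 (0.00523), 3.17 ± 0.57 for Mertk (0.00631) and 2.54 ± 0.44 for the sialyltransferase St6gal1 (0.00953). Abca9 was at 25.2, 62 and 38.7 CPM in treated CD4 cells and at 4.8, 14.8 and 12.7 CPM in untreated CD4 cells (1.96 ± 0.46), and fell by 2.93 ± 0.71 in CD8 cells. St6gal1 was at 122, 233 and 71.5 CPM in treated CD4 cells and at 92.8, 69.4 and 64.8 CPM in untreated CD4 cells. The direction of the difference was the same for all 18 genes in the 20 other settings. It was called in all 20 for Ctla4, Gzmb, Klrg1, Il10 and St6gal1, and in fewest, 4 and 5, for Slc30a4 and Gzmk.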

How the results depend on the processing

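The counts of calls moved with the processing more than the fold changes did. In the CD4 blockade, 12 genes were called higher and 8 lower. These counts were 260 and 281 with no filter on low counts, 100 and 77 with DESeq2, 23 and 28 with the 6 deficient CD4 libraries alone, and 35 lower with limma voom, and the cause was not tested. They were 13 and 8 with RLE scaling, 13 and 8 with a stricter filter, 9 and 8 with the 9 CD4 libraries alone and 9 and 6 without rRNA-like and small RNA models. Without each library in turn they ran from 0 to 71 higher and from 0 to 35 lower. Without both shallow libraries (treated replicate 2 and untreated replicate 3, chosen after seeing the data) they were 0 and 1, the last being Snord17, with 1100 genes at an unadjusted p under 0.05.

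With the replicate number as a block, the counts were 38 higher and 20 lower over 18 libraries and 41 and 44 over the 6 libraries alone. Whether the numbers pair the samples is not known. No treated library correlated best with its own number, since the highest correlation of each was with another.

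The difference between cell types was called for 113 genes. That count was 665 with no filter, 336 with DESeq2, 173 with the replicate block, 55 without both shallow libraries, and 49 to 108 without each library in turn. The 20 called genes kept their direction in every setting. Over the values of all named genes and settings, 1566 kept their direction and side of the threshold, 134 became called, 229 lost a call and 25 turned sign.

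None of the values that turned sign was called. Without both shallow libraries these were Cd8b1 (-0.12, against 0.52 with all libraries), Foxp3 (0.04), Tbx21 (0.21), Bcl6 (-0.0035, against 0.72), Klrg1 (0.02) and Snx5 (0.04). Without rRNA-like and small RNA models they were Tigit (-0.0034) and Gzmb (-0.0041). Tbx21 was at 0.0035 with no filter, 0.005 with the stricter filter and 0.02 with limma voom. Without 1 library, Foxp3 ran from -0.1 to 0.12, Il2ra from -0.01 to 0.31, Tigit from -0.11 to 0.19, Gzmb from -0.11 to 0.18, Tbx21 from -0.19 to 0.18, Snx5 from -0.09 to 0.03 and Atg16l1 from -0.19 to 0.03.

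At these depths genes of a few CPM rest on few reads: 3 counts equal 0.904 CPM in the shallowest treated library. A gene that was not called is not shown to be unaffected.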

Other observations

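Some groups of genes had no place in the account above. Of 29 genes of T cell receptor signalling, Themis alone was called, 9 lay above and 0 below in all treated libraries (10.1% and 9.9% of all tested genes), and the median log2 fold change was 0.21 (0.33 without treated replicate 3). Cd6, a surface receptor that tunes T cell receptor signals, was at 491, 487 and 424 CPM in treated cells and at 301, 327 and 253 CPM in untreated cells (0.67 ± 0.16, edgeR adjusted p = 0.116). Of 24 genes induced by that receptor 0 were called (median 0.34, but 0.18 without treated replicate 2 and 0.52 without treated replicate 3), among them Dusp2, a phosphatase of activated T cells, at 187, 202 and 138 CPM in treated cells and at 128, 115 and 119 CPM in untreated cells (0.54 ± 0.14, adjusted p = 0.127). Of 16 AP-1 and immediate early genes 0 were called, with a median of 0.06 (0.02 without treated replicate 2 and 0.17 without treated replicate 3). Of 7 Th17 genes 0 were called (median 0.69), with Rora, a nuclear receptor, at 316, 377 and 265 CPM in treated cells and at 214, 180 and 200 CPM in untreated cells (0.69 ± 0.17, adjusted p = 0.119).

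Chemokines and their receptors went both ways. Ccl1, a chemokine of activated T cells, was at 107, 161 and 21.6 CPM in treated cells and at 13.6, 16 and 7.07 CPM in untreated cells (2.90 ± 0.63, edgeR adjusted p = 0.116). Ccl17, a chemokine made by dendritic cells, was at 1.57, 2.11 and 1.62 CPM in treated cells and at 15.6, 7.07 and 8.77 CPM in untreated cells (-2.60 ± 0.63, adjusted p = 0.116). Ccr9, a gut homing receptor, was at 3.93, 4.22 and 10.5 CPM in treated cells and at 74.3, 23.7 and 19.2 CPM in untreated cells (-2.62 ± 0.62, adjusted p = 0.118). Its highest library was untreated replicate 1. Siglech, a member of the dendritic cell list, peaked in that library too, at 62.3 CPM against 0 to 3.92 CPM in the others. The part of dendritic cells in the level of Ccr9 was not tested. Tnfsf11, the cytokine RANKL, was at 186, 391 and 82.5 CPM in treated cells and at 55.2, 67.1 and 97.6 CPM in untreated cells (1.58 ± 0.42, adjusted p = 0.179). Socs3, a feedback inhibitor of cytokine receptors, was at 208, 135 and 205 CPM in treated cells and at 447, 305 and 269 CPM in untreated cells (-0.90 ± 0.21, adjusted p = 0.116). The list medians were -0.13 for chemokine ligands, 0.05 for chemokine receptors and homing, 0.23 for costimulatory receptors, 0.13 for cytokine receptors, 0.08 for STAT5 and cytokine feedback, -0.08 for the BCL2 family, -0.11 for mitochondrially encoded genes and 0.11 for dissociation stress. These medians were small and most moved with single libraries. Without treated replicate 1 they were 0.00 for chemokine ligands, 0.10 for the BCL2 family and 0.11 for costimulatory receptors, and without treated replicate 2 they were 0.05 for cytokine receptors and 0.01 for STAT5 and cytokine feedback. Without treated replicate 3 that of costimulatory receptors was 0.43. Without untreated replicate 1 they were -0.31 for chemokine ligands and 0.01 for chemokine receptors and homing, and without untreated replicate 3 that of mitochondrially encoded genes was 0.01. Apart from Cxcr6 in the homing list, 0 members of these 8 lists were called.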
